A study of Rattus norvegicus with 6 samples.

Results

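Genes of the Wnt signalling system were described on 6 hippocampal arrays of the male Wistar rat, an outbred laboratory strain. They comprise the Wnt ligands, the Frizzled receptors with the co-receptors Lrp5 and Lrp6, the secreted inhibitors of the Dkk and Sfrp families, and the scaffold proteins Axin1 and Axin2. The members were all non-control probes with a gene symbol of these families, plus 1 probe of Wnt2b that the rule named outright, and the brightest probe stands for each gene. This gave 36 genes on 42 probes, of 15154 named genes and 30367 probes on the array, and 30 of the genes had 1 probe and 6 had 2. By role there were 17 ligands, 8 Frizzled receptors, 2 co-receptors, 2 Axins and 7 secreted inhibitors.

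The study compared males that had both testes removed (orchidectomized, 3 animals) with sham-operated males (3 animals). Surgery was done when the animals were 2 months old, and 2 weeks passed before they were anaesthetized with ketamine and medetomidine and the hippocampus was taken. Housing had a light phase and a dark phase of 12 h each, with free food and water. The labels call the samples biological replicates, and each RNA was hybridised to its own 1-colour Agilent array. Per array, 23785 to 26173 of the 30367 probes were well above background, and precision is limited by having 6 arrays. A value is the log2 intensity of a probe less the 75th percentile of its array, and differences are orchidectomized minus sham unless stated.

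Wnt proteins are secreted, lipid-modified ligands that bind a Frizzled receptor together with Lrp5 or Lrp6. In the canonical branch this stops a complex of Axin, Apc and Gsk3b from degrading beta-catenin, which then acts with TCF/LEF factors on target genes such as Axin2. Secreted Frizzled-related proteins (Sfrp) bind Wnts, and Dickkopf proteins such as Dkk1 bind the Lrp co-receptors. In the mouse, Wnt signalling is needed to form the hippocampus, and in the adult it is known for roles in dentate neurogenesis and at synapses.

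The array labelled sham 2 did not carry the expression profile of hippocampus, and differences between the groups are therefore given with and without it. Vesicular glutamate transporter 1 (Slc17a7) and the granule cell factor Prox1 were not well above background on it, and 11 of 11 glutamatergic neuron genes were lower there by over 1 log2 unit than the median of the other 5 arrays. The mean log2 value of that list was -6.69 there and -0.35 to 0.26 on the others. Choroid plexus is the epithelium that secretes cerebrospinal fluid, and 17 of 18 of its genes were higher by over 1 log2 unit, with a list mean of 4.0 against -4.55 to -3.38. Across probes, which are not independent replicates, its correlation with the others was 0.837 to 0.843, and that among the other 5 was 0.981 to 0.992. On the remaining 5 arrays 11 of 11 glutamatergic genes were well above background.

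The promoters of 4 members are shown, and no expression result below depends on them. Wnt2b and Wnt8b were the members with an unadjusted p under 0.05, and Axin2 and Dkk1 are the members best known as targets of the pathway itself. Each sequence is the 250 bases before the gene start of RefSeq in the GRCr8 assembly, 5′ to 3′ on the gene's strand. Capitals mark TCF/LEF motifs (ATCAAAG or TTCAAAG on either strand) or the androgen receptor hexamer (AGAACA on either strand).
Wnt2b (chr2:195156946-195157195, minus strand): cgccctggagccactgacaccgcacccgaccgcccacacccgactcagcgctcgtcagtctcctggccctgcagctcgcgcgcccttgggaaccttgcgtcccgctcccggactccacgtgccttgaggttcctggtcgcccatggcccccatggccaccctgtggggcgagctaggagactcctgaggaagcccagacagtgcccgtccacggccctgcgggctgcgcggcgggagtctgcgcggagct
Wnt8b (chr1:253303119-253303368, plus strand): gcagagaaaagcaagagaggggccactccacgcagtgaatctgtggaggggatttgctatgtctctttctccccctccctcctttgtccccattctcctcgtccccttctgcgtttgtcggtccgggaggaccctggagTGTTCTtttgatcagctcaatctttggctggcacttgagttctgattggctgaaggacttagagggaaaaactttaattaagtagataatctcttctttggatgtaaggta
Axin2 (chr10:94398535-94398784, plus strand): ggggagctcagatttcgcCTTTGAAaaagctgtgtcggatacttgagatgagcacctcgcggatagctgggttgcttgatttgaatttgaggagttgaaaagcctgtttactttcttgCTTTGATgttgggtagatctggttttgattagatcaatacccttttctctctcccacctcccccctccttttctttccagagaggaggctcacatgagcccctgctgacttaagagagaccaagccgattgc
Dkk1 (chr1:237798651-237798900, minus strand): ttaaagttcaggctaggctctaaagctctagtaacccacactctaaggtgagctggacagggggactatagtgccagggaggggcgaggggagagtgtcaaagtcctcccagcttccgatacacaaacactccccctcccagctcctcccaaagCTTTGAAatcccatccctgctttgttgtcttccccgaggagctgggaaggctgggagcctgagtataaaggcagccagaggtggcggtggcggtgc
Axin2 held 2 TCF/LEF matches, which began 232 and 132 bases before its start, and Dkk1 held 1 at 96 bases. Of the 23 members with a promoter entry, 3 held a TCF/LEF match (Axin2, Dkk1 and Wnt8a), against 7.58% of 27455 promoters of the same length. The androgen receptor hexamer occurred in 1 of the 23 (Wnt8b, 111 bases before its start), against 17.1% of all, and the full site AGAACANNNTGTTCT occurred in 0 of the 23 and in 1 of all 27455. The median GC content of the members' promoters was 63.6%, beside 52.0% over all. These matches describe letters in this window and are not evidence of binding.

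**Figure D1:**
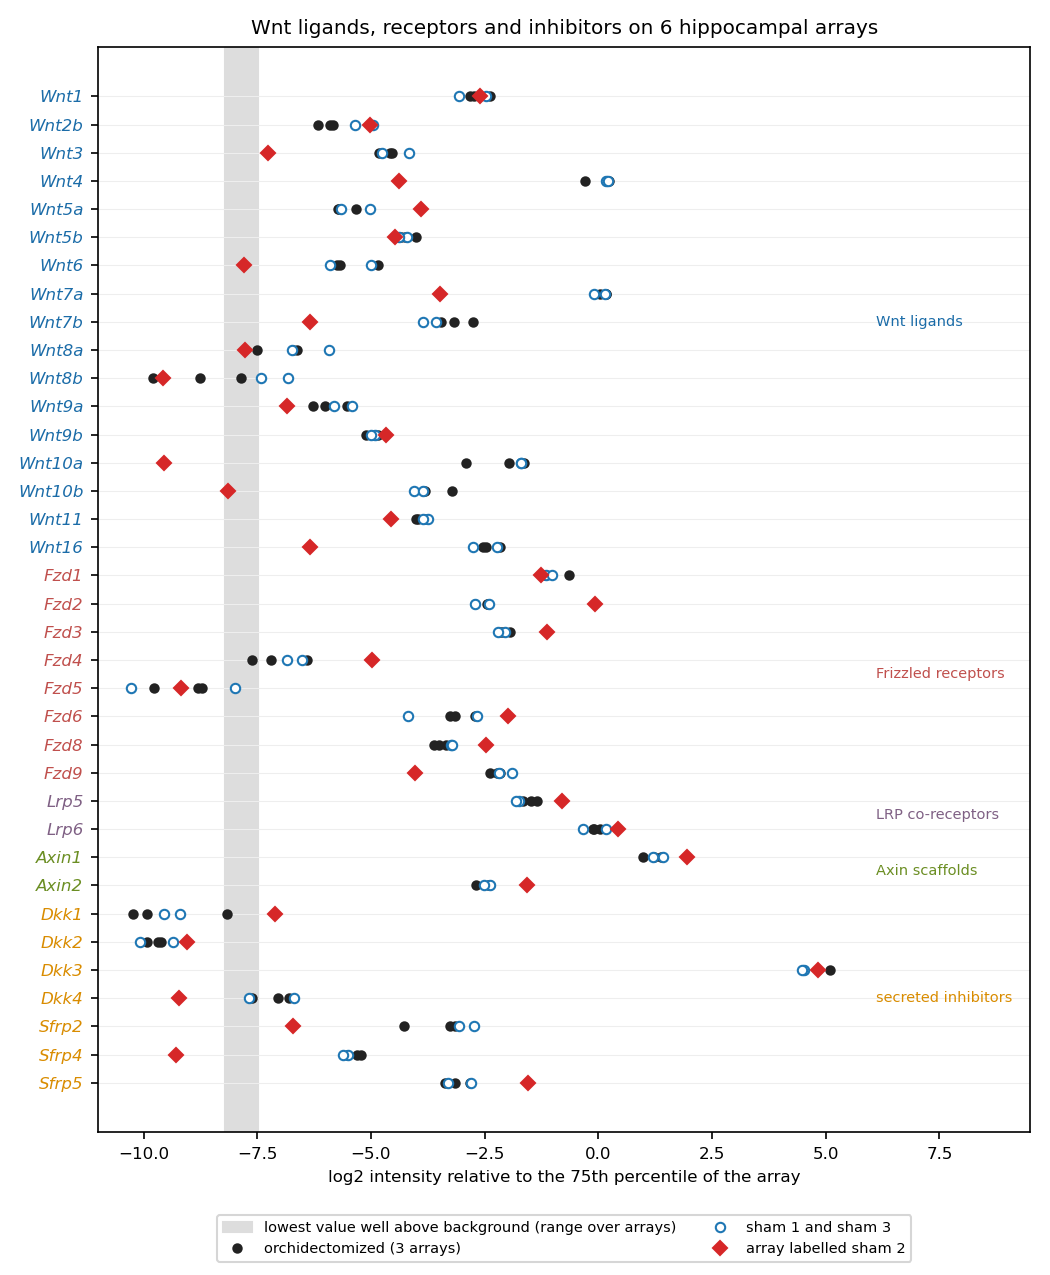
Log2 intensity of the 36 members on each array, less the array's 75th percentile. Filled circles are the 3 orchidectomized arrays, open circles sham 1 and sham 3, diamonds the array labelled sham 2, and the grey band spans the lowest value well above background over the arrays (-8.21 to -7.48). Diamonds stand apart from the circles for many members, while filled and open circles mostly overlap.

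The first question was which of these genes are expressed at a measurable level. Of the 36 members, 24 were well above background on all 6 arrays. Fzd5, a Frizzled receptor, and Dkk2, a Dickkopf inhibitor, were above background on 0 arrays, and Dkk1 was so on the array labelled sham 2 alone. Wnt8b was above background on sham 1 and sham 3 alone, and Wnt8a and Dkk4 on 4 and 3 of the 6 arrays. The symbols Wnt2, Wnt3a, Fzd7, Fzd10, Sfrp1 and Wif1 had no probe named through RefSeq and were not analysed here.

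The second question was whether the members differ between orchidectomized and sham-operated males. Over 6 arrays 30 members passed the brightness filter, and limma called 0 of them at a Benjamini-Hochberg adjusted p under 0.05; over all probes it called 0 of 24634. Without the array labelled sham 2 it called 0 of 32 members and 0 of 25212 probes. The share called over all probes was thus 0% in both. An unadjusted limma p under 0.05 was found for 1 of 30 members, lower in orchidectomized animals, where 0.731% of all probes tested had one (0.641% lower and 0.0893% higher). Without that array it was found for 2 of 32, both lower, where 2.71% of all probes had one (2.26% lower and 0.448% higher). These were Wnt2b, whose probe was picked with earlier results known, and Wnt8b, which passed the filter only through the sham arrays, where it is high. Nothing is therefore read from these counts against the shares of all probes. Both comparisons use the same 3 orchidectomized arrays and 2 of the sham arrays, so they are not independent.

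Without the array labelled sham 2 the members' differences had a median of -0.04 log2 units, beside -0.02 over all probes, and 27 of 32 were smaller than 0.5 in size. The median size of the difference was 0.19 for the members and 0.13 over all probes, and the median standard error was 0.21. In all, 15 members had a positive and 17 a negative difference, where 44.9% of all probes were positive. With normexp background correction the split was 25 positive and 7 negative, and the median of all probes was then 0.08. The groups did not overlap for 7 of the 32 members, 3 higher and 4 lower in orchidectomized animals, a share of 21.9% beside 16.3% of all probes (6.24% higher and 10% lower). The same 2 genes are among the 4 lower ones. Over 6 arrays the groups did not overlap for 4 of 30, 2 in each direction, or 13.3% beside 8% of all probes (3.26% higher and 4.74% lower). There 17 of 30 members had a positive difference, where 48.4% of all probes did. Wnt10b, which is among those without overlap, passed the filter there only through the orchidectomized arrays, where it is high. So did Wnt10a, Wnt3, Wnt6 and Sfrp4, which are among the positive differences. Fzd4, among the negative differences in both comparisons, passed the filter only through the sham arrays, where it is high. Wnt2b is among the lower ones without overlap. Nothing is therefore read from these shares against those of all probes.

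Wnt2b, a canonical ligand whose probe was picked with earlier results known, was the member with the smallest p in both comparisons. Its values were -5.90, -5.84 and -6.16 on orchidectomized 1 to 3, -5.36 and -4.95 on sham 1 and sham 3, and -5.03 on the array labelled sham 2. All 3 orchidectomized arrays lay below all 3 sham arrays. The group means were -5.97 ± 0.17 (SD, n = 3) and -5.11 ± 0.22 (SD, n = 3), so they differed by -0.85, standard error 0.20 (limma adjusted p = 0.774). Without the array labelled sham 2 the sham mean was -5.16 ± 0.29 (SD, n = 2) and the difference -0.81 (standard error 0.18, limma adjusted p = 0.988). Orchidectomized 3 and sham 1 shared a slide and differed there by -0.80, and among arrays of the first scan day (orchidectomized 1 to 3 and sham 1) the difference was -0.61. With normexp background correction it was -0.16 over 6 arrays and -0.11 over 5, with limma adjusted p of 0.816 and 0.975, where the median of all probes was 0.08 in both. Its promoter, shown above, held neither motif.

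Wnt8b, a ligand known from the embryonic cortical hem of the mouse, lay near background on every array and did not pass the adjusted threshold. Its values were -7.85, -8.76 and -9.79 on the orchidectomized arrays, -6.82 and -7.41 on sham 1 and sham 3, and -9.56 on the array labelled sham 2. It was well above background on 0 of the 3 orchidectomized arrays, and the mean of sham 1 and sham 3 was at least 1.53-fold above the bound of the orchidectomized arrays (limma adjusted p = 0.988). It entered the test through those 2 sham arrays alone, so a lower orchidectomized mean was built into its selection. With normexp the sign turned, to 0.16. Wnt8b was highest on sham 1, where the mean of a list of genes of thalamus and habenula, which border the hippocampus, was also highest. Not every gene of the list followed its mean. Leaving aside the array labelled sham 2, Slc17a6 was highest on sham 3 (-0.61, against -0.96 on sham 1). Gbx2, Rgs16 and Tnnt1 were highest on an orchidectomized array. The mean of the 10 such genes with a probe was -3.06 on sham 1 and -4.08 to -3.63 on sham 3 and the orchidectomized arrays, and the habenula gene Gpr151 was above background on 0 arrays. Without the array labelled sham 2, 8 of 8 tested genes of that list had a negative difference, with a median of -0.30, and limma called 0. Their part in the Wnt8b value was not tested.

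Wnt7b, a ligand of canonical signalling, had the smallest p of the members that were higher in orchidectomized animals, without the array labelled sham 2. It measured -3.18, -3.45 and -2.75 on the orchidectomized arrays and -3.57 and -3.85 on sham 1 and sham 3, with no overlap and a difference of 0.58 (limma adjusted p = 0.988). The array labelled sham 2 had -6.33, and the difference over 6 arrays was 1.46, standard error 0.78 (limma adjusted p = 0.774), so 1 array set most of its size. Wnt10b, another canonical ligand, showed the same arrangement. It had -3.85, -3.82 and -3.22 against -4.04 and -3.87, a difference of 0.32 (limma adjusted p = 0.988), and 1.72 over 6 arrays through a value of -8.15 on the array labelled sham 2, not well above background. Orchidectomized 3 was the highest array for both, and with it left out as well the Wnt10b difference was 0.12. With normexp the differences over 6 arrays were 0.85 for Wnt7b and 0.77 for Wnt10b.

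**Figure D2:**
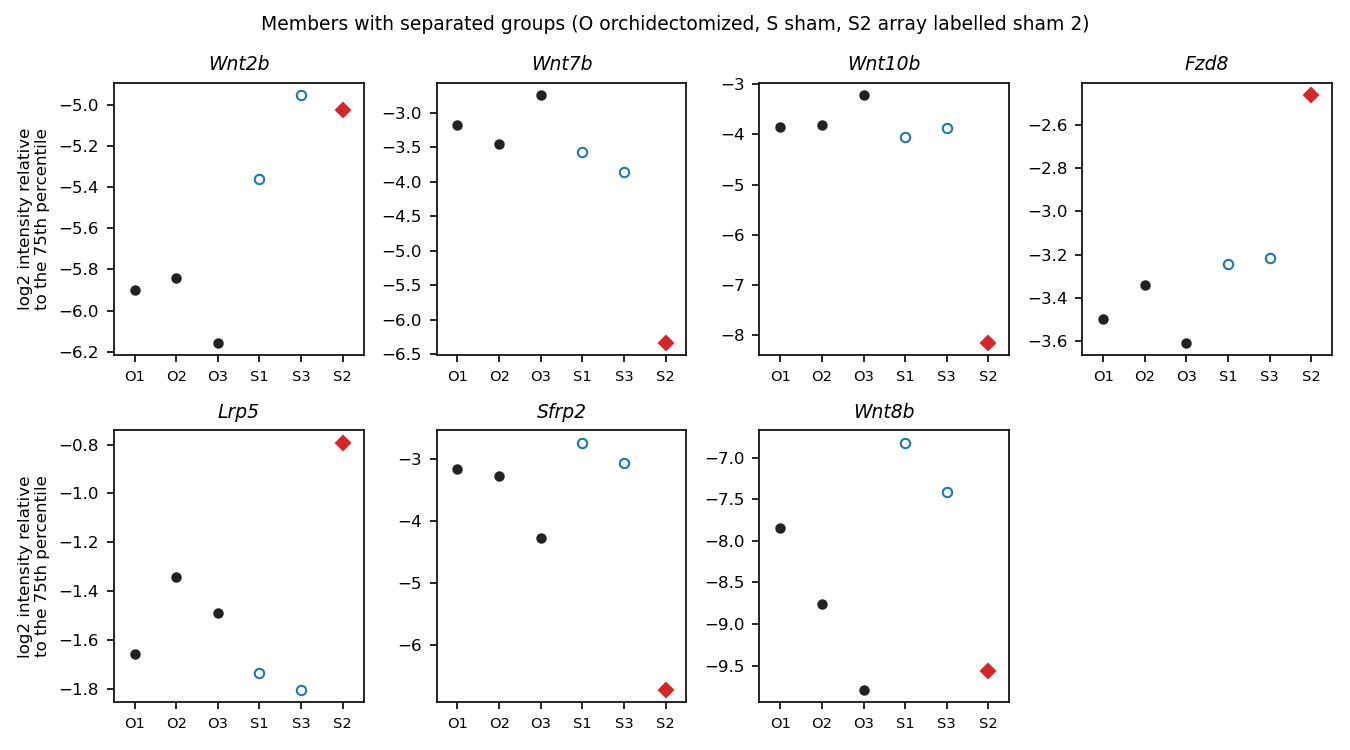
Log2 intensity (less the array's 75th percentile) of the 7 members whose groups did not overlap without the array labelled sham 2. O1 to O3 are orchidectomized arrays, S1 and S3 sham arrays, and S2 is the array labelled sham 2, drawn as a diamond. Wnt2b is the panel in which S2 lies between S1 and S3.

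Among receptors, Fzd8 had groups that did not overlap with or without the array labelled sham 2, with values of -3.50, -3.34 and -3.61 against -3.25 and -3.22, and -2.46 on the array labelled sham 2. The difference was -0.25 without that array (95% confidence interval -0.59 to 0.09, limma adjusted p = 0.988) and -0.51 with it (limma adjusted p = 0.774), which moved it by over 1.5 times. With normexp these were -0.10 and -0.33. Lrp5 had -1.66, -1.34 and -1.49 against -1.74 and -1.80, a difference of 0.27 (interval -0.09 to 0.64, limma adjusted p = 0.988). The array labelled sham 2 had -0.79, so the difference was -0.05 over 6 arrays. The other co-receptor, Lrp6, differed by 0.03 (interval -0.43 to 0.48). Fzd1, Fzd2 and Fzd3 differed by 0.09, 0.04 and 0.04 without the array labelled sham 2, and Fzd4, Fzd6 and Fzd9 by -0.39, 0.38 and -0.23. Over 6 arrays these differences were 0.15, -0.79 and -0.29 for Fzd1, Fzd2 and Fzd3, and -0.95, -0.10 and 0.44 for Fzd4, Fzd6 and Fzd9. That of Lrp6 was -0.14. In both comparisons Fzd4 passed the filter only through the sham arrays, so a lower orchidectomized mean was built into its selection. None of these receptor differences passed the limma test.

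Among inhibitors, Dkk3, a divergent member of the Dickkopf family, had 4.5, 4.52 and 5.10 on the orchidectomized arrays, 4.53 and 4.47 on sham 1 and sham 3, and 4.82 on the array labelled sham 2. It was within the range of the other 5 on that array, and its difference without it was 0.21 (interval -0.33 to 0.75), and 0.10 with it. Sfrp2 had -3.16, -3.26 and -4.27 against -2.73 and -3.06, with the lowest of these values on orchidectomized 3. Its difference was -0.67 (interval -1.57 to 0.23, limma adjusted p = 0.988), and it was -0.32 when orchidectomized 3 was left out as well and -0.41 with normexp. Its value on the array labelled sham 2 was -6.72, and the difference over 6 arrays was 0.61, of the opposite sign. Sfrp5 differed by -0.06 and Sfrp4 by 0.19 without that array, and the scaffolds Axin1 and Axin2 by -0.12 and -0.06. Over 6 arrays they differed by -0.56 (Sfrp5), 1.44 (Sfrp4), -0.33 (Axin1) and -0.35 (Axin2). Axin2, the feedback target of the pathway, had -2.38, -2.42 and -2.70 against -2.38 and -2.50, with overlapping groups.

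The remaining ligands differed without the array labelled sham 2 by -0.62 (Wnt8a) to 0.12 (Wnt1), and 0 of them passed the limma test. Wnt4 differed by -0.15, Wnt7a by 0.09, Wnt5a by -0.24, Wnt3 by -0.19 and Wnt10a by -0.47. Wnt16, Wnt5b and Wnt6 differed by 0.10, 0.10 and 0.03, and Wnt9a, Wnt9b and Wnt11 by -0.33, -0.02 and -0.13. Over 6 arrays, with the array labelled sham 2 in the sham mean, Wnt10a differed by 2.14, Wnt16 by 1.38, Wnt4 by 1.37 and Wnt7a by 1.26. Wnt6 and Wnt3 differed there by 0.81 and 0.74, Wnt5a by -0.72, and Wnt1, Wnt5b, Wnt9a, Wnt9b and Wnt11 by -0.11 to 0.16. Limma called 0 of them there too. Wnt8a, like Wnt8b and the receptor Fzd4, entered the test without the array labelled sham 2 through sham 1 and sham 3 alone.

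**Figure D3:**
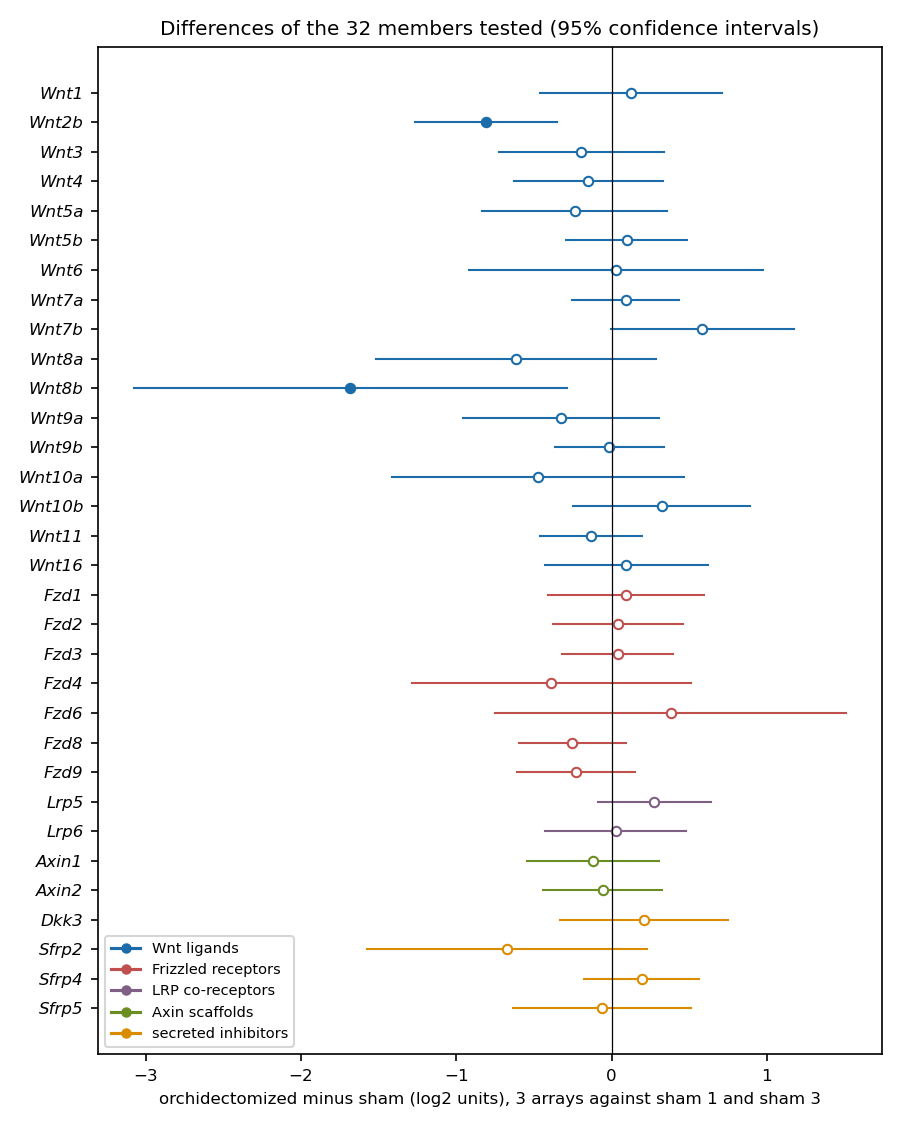
Orchidectomized minus sham difference in log2 units for the 32 members tested without the array labelled sham 2 (3 against 2 arrays), with 95% confidence intervals from limma, coloured by role. Filled points have an unadjusted p under 0.05, which held for Wnt2b and Wnt8b, and 0 of the 32 passed the adjusted threshold.

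The members also varied among the 5 arrays with a hippocampal profile. The range from the lowest to the highest of those arrays had a median of 0.56 log2 units over the 31 members well above background on the array labelled sham 2 or on all 5 others, beside 0.48 over the 25240 such probes. Wnt7a spanned 0.25, Fzd3, Wnt11 and Wnt9b 0.27 each and Fzd2 0.30. Among members above background on all 6 arrays, Sfrp2 and Fzd6 spanned 1.54 and 1.52. Fzd6 was lowest on sham 3 at -4.18 and highest on sham 1 at -2.66, both sham arrays, so its spread lay within 1 group.

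The third question was what the array labelled sham 2 showed for these genes. A single array has no replicate, and the differences are descriptions. Of the 31 members, 12 were lower by over 1 log2 unit than the median of the other 5 (38.7%, beside 23.3% of all probes) and 6 were higher as measured (19.4%, beside 20.7%). Dkk1 is 1 of the 6 and was not well above background on the other 5 arrays. Its bound there is 0.70 log2 units, so with bounds in place of such values 12 were lower and 5 higher (16.1%). Of the lower ones, Wnt10a, Wnt10b, Wnt3, Wnt6 and Sfrp4 were counted only because the other 5 arrays were well above background. A lower value was thus built into their selection, as a higher one was for Dkk1 and Fzd4. Fzd4, also 1 of the 6, was well above background on 4 of the other 5 arrays. It was counted only through the array labelled sham 2, where it is high. The array labelled sham 2 lay outside the range of the other 5 for all 31 members except Dkk3, Wnt1 and Wnt2b, and for 80.6% of all probes. In bulk tissue fewer cells of a type and less RNA per cell cannot be told apart. The split of 12 lower and 6 higher was 8 and 2 with normexp, 11 and 9 with quantile normalization, 11 and 11 with median scaling and 12 and 6 with the authors' deposited values. The median of all these probes was 0.043, and 0.0046, 0.18, 0.30 and -0.0034 under those settings. All 18 members kept their direction under each of them.

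Most of the low members were ligands. Of 15 ligands, 9 were lower by over 1 log2 unit and 1, Wnt5a, was higher. Wnt10a, a canonical ligand, had -1.96, -1.64 and -2.92 on the orchidectomized arrays and -1.70 and -1.69 on sham 1 and sham 3, and was not well above background on the array labelled sham 2, at least 46.4-fold dimmer than the mean of the others. Wnt4 had 0.23, 0.16, -0.29, 0.16 and 0.20 on those 5 arrays and -4.39 there, a difference of -4.55. Wnt7a, which acts in the growth of synapses in the mouse, had 0.16, 0.16, 0.04, 0.15 and -0.09, and -3.48 there. Wnt16 had -2.48, -2.17, -2.54, -2.75 and -2.24 against -6.34. For these 4 genes the array labelled sham 2 lay far below the lowest of the other 5. Those 5 spanned 0.25 to 0.58 log2 units for Wnt7a, Wnt4 and Wnt16, and 1.28 for Wnt10a, with orchidectomized 3 the lowest.

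Wnt10b, Wnt3 and Wnt6 were likewise not well above background there, at least 13.5-fold, 6.47-fold and 4.24-fold dimmer than the mean of the others. Wnt7b and Wnt9a differed by -2.88 and -1.05. The secreted inhibitor Sfrp4 had -5.32, -5.54, -5.22, -5.50 and -5.61 on the other 5 and was at least 4.24-fold dimmer there, not well above background. Sfrp2 differed by -3.57. Of the receptors, Fzd9 was the one lower by over 1 log2 unit, with -4.04 against -2.39 to -1.89. These genes were low where glutamatergic neuron genes (a median of -7.40 over 11 genes) and most GABAergic neuron genes (-5.71 over 8) were low. Medians were also low for genes of astrocytes (-4.63 over 9), oligodendrocytes (-4.47 over 8) and microglia (-1.62 over 7). In that order, 11, 7, 8, 8 and 4 genes of these lists were lower by over 1 log2 unit. The GABAergic neuron gene Reln was higher by 3.39. The part of those cells in each gene's value was not tested.

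Of the 6 high members, 3 were Frizzled receptors. Fzd2 had -2.44, -2.42 and -2.71 on the orchidectomized arrays, -2.41 and -2.72 on sham 1 and sham 3, and -0.07 on the array labelled sham 2. Fzd4, also the receptor of the retinal and vascular ligand Norrin, had -7.19, -7.61, -6.40, -6.51 and -6.85 against -4.98, and Fzd6 had -3.15, -3.27, -2.71, -2.66 and -4.18 against -1.99. Each of the 3 was above every other array, and Fzd4 was counted only through the array labelled sham 2. Fzd3, Fzd8 and Lrp5 were higher by 0.995, 0.88 and 0.87, and Axin1 and Axin2 by 0.73 and 0.86.

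Wnt5a, a ligand that often acts without beta-catenin, had -5.71, -5.72, -5.32, -5.03 and -5.66 on the other 5 arrays and -3.90 on the array labelled sham 2. Sfrp5 had -2.82, -3.15, -3.36, -2.80 and -3.30 against -1.55. Dkk1 had -10.23, -9.92, -8.16, -9.19 and -9.55, none well above background, and -7.10 there, at least 1.62-fold brighter. Its second probe was not above background on any array. These genes were high where most choroid plexus genes (a median of 8.09 over 18), ependymal genes (4.66 over 11) and genes of meninges and fibroblasts (1.95 over 10) were high. In that order, 17, 8 and 7 genes of these lists were higher by over 1 log2 unit, and 0 were lower by that much. The ependymal genes Mia, Tmem212 and Rarres2 differed by -0.61, -0.57 and -0.04, and the meningeal gene Slc6a13 by -0.41. The part of those cells was not tested.

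Second probes of a gene did not always give the same size. On the array labelled sham 2 the second probe of Fzd6 was higher by 3.04, where the brightest gave 1.16, and that of Lrp6 by 2.46, where the brightest gave 0.53. The second probe of Sfrp5 differed by -0.25, of opposite sign to the 1.60 of the brightest. For Wnt9b and Wnt11 the second probes differed by -0.39 and -0.24, where the brightest gave 0.29 and -0.72. On that array the difference of Sfrp5 and of Wnt9b thus depends on the probe. Group differences varied by probe too. Without that array the second probes of Fzd6, Lrp6, Sfrp5, Wnt9b and Wnt11 gave -0.03, -0.06, 0.03, -0.34 and -0.30. The brightest gave 0.38, 0.03, -0.06, -0.02 and -0.13, in the same order. Over 6 arrays the second probes gave -1.05, -0.86, 0.11, -0.15 and -0.12, and the brightest -0.10, -0.14, -0.56, -0.11 and 0.12.

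**Figure D4:**
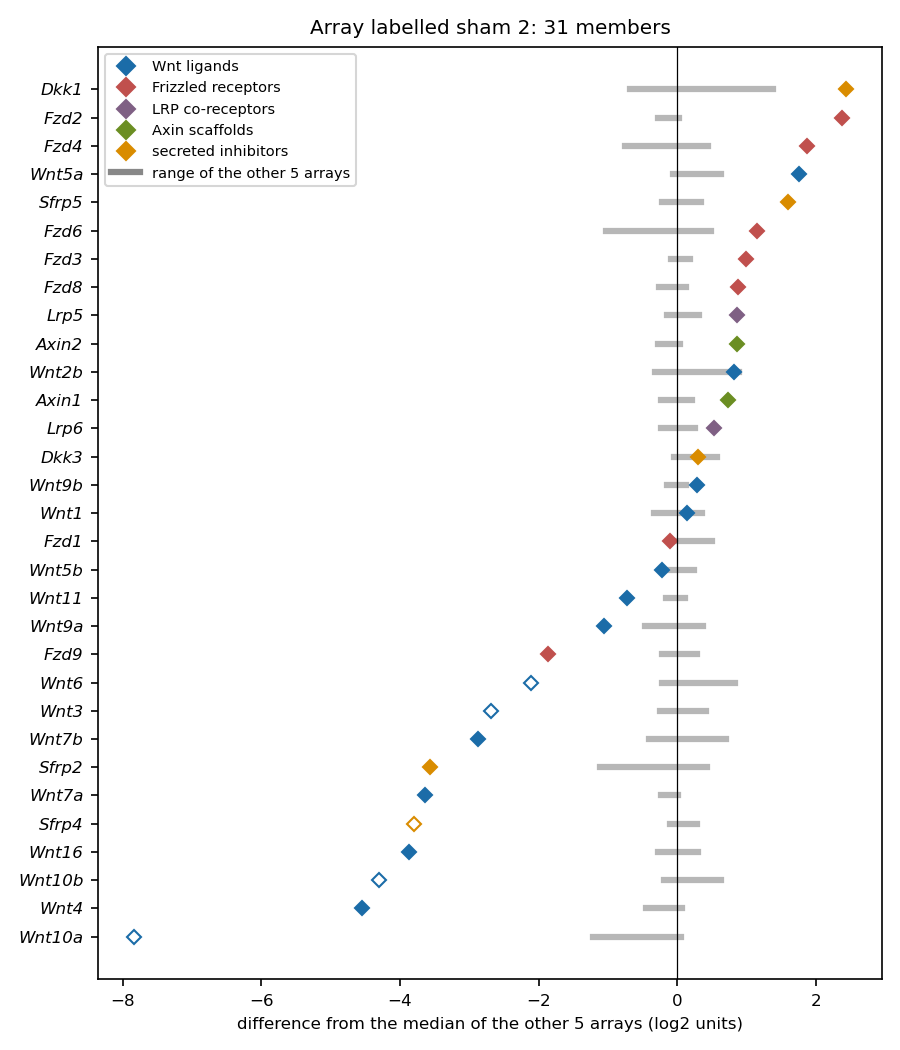
Difference of the array labelled sham 2 from the median of the other 5 arrays, in log2 units, for 31 members, coloured by role. Grey bars span the other 5 arrays around their median, and open diamonds mark members not well above background on the array labelled sham 2. Ligands fill most of the low end and receptors lie mostly above 0.

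Of 65 listed genes of the Wnt pathway beyond the members, 46 had a named probe, and limma called 0 of 46 over 6 arrays and 0 of 46 without the array labelled sham 2. Without it 20 had a positive and 26 a negative difference, with a median of -0.03. Sost and Rnf43, lower, and Sostdc1, higher, had an unadjusted limma p under 0.05, which is 3 of 46 (6.52%), beside 2.71% of all probes. Over 6 arrays it was 2 of 46 (4.35%), Sost and Rnf43, beside 0.731%. Sost encodes sclerostin, which binds Lrp5 and Lrp6, and it had -6.08, -6.17 and -5.45 on the orchidectomized arrays, -4.93 and -5.34 on sham 1 and sham 3, and -4.84 on the array labelled sham 2. Its differences were -0.77 (limma adjusted p = 0.988) and -0.86 over 6 arrays (limma adjusted p = 0.774), with groups that did not overlap. With normexp they were -0.12 and -0.21.

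Rnf43, a ubiquitin ligase that removes Frizzled receptors, differed by -0.44 without the array labelled sham 2 and by -0.43 with it (limma adjusted p = 0.988 and 0.774), and with normexp by 0.034 and 0.0011. The next smallest p belonged to Lgr4, a receptor for R-spondins, with a difference of 0.38 over 5 arrays (limma adjusted p = 0.988), and to Csnk1e, a casein kinase, and Ryk, a Wnt receptor, with 0.53 and -0.52 over 6 arrays (limma adjusted p = 0.774 for both). Sostdc1, a secreted antagonist of BMP and Wnt signals, had -2.73, -2.82 and -4.25 on the orchidectomized arrays and -4.57 and -4.65 on sham 1 and sham 3, a difference of 1.34 (limma adjusted p = 0.988). The choroid plexus list moved with it in part, with a mean of -3.38 and -3.69 on orchidectomized 1 and 2, -4.07 on orchidectomized 3, and -3.54 and -4.55 on sham 1 and sham 3. Its part in the Sostdc1 value was not tested. On the slide shared by orchidectomized 3 and sham 1 the difference of Sostdc1 was 0.32.

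On the array labelled sham 2, 16 of the 46 pathway genes were lower by over 1 log2 unit (34.8%, beside 23.3% of all probes) and 6 were higher (13%, beside 20.7%). Sostdc1 was saturated there at 5.22, at least 521-fold above the mean of the others. Kremen1, which binds Dickkopf proteins, had -2.52 against -7.39 to -6.89. Wls, the carrier that Wnts need to leave the cell, had 3.29 against -0.37 to -0.13, and Ror1, a receptor for Wnt5a, -2.46 against -5.55 to -5.04. At the low end, Apc2, a relative of Apc found in neurons, had -1.82 against 2.45 to 3.52, and Lef1, a TCF/LEF factor needed for the dentate gyrus in the mouse, -6.99 against -2.70 to -2.29. Notum, an enzyme that strips the lipid from Wnts, was not well above background there and at least 6.49-fold dimmer. It was counted only through the other 5 arrays. Porcn, which attaches that lipid, differed by -1.49.

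Genes that canonical signalling is known to induce were read from a list of 14 beyond the members, of which 10 had a named probe. Limma called 0 of 9 that passed the brightness filter in either comparison, and their median difference was -0.06 without the array labelled sham 2. Tnfrsf19, a receptor of the tumour necrosis factor family, had -3.63, -3.61 and -3.52 on the orchidectomized arrays and -3.67 and -3.57 on sham 1 and sham 3. It was not well above background on the array labelled sham 2, at least 15.1-fold dimmer. Ctnnb1, the gene of beta-catenin, differed by -0.05 between the groups and by 0.40 on that array.

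**Figure D5:**
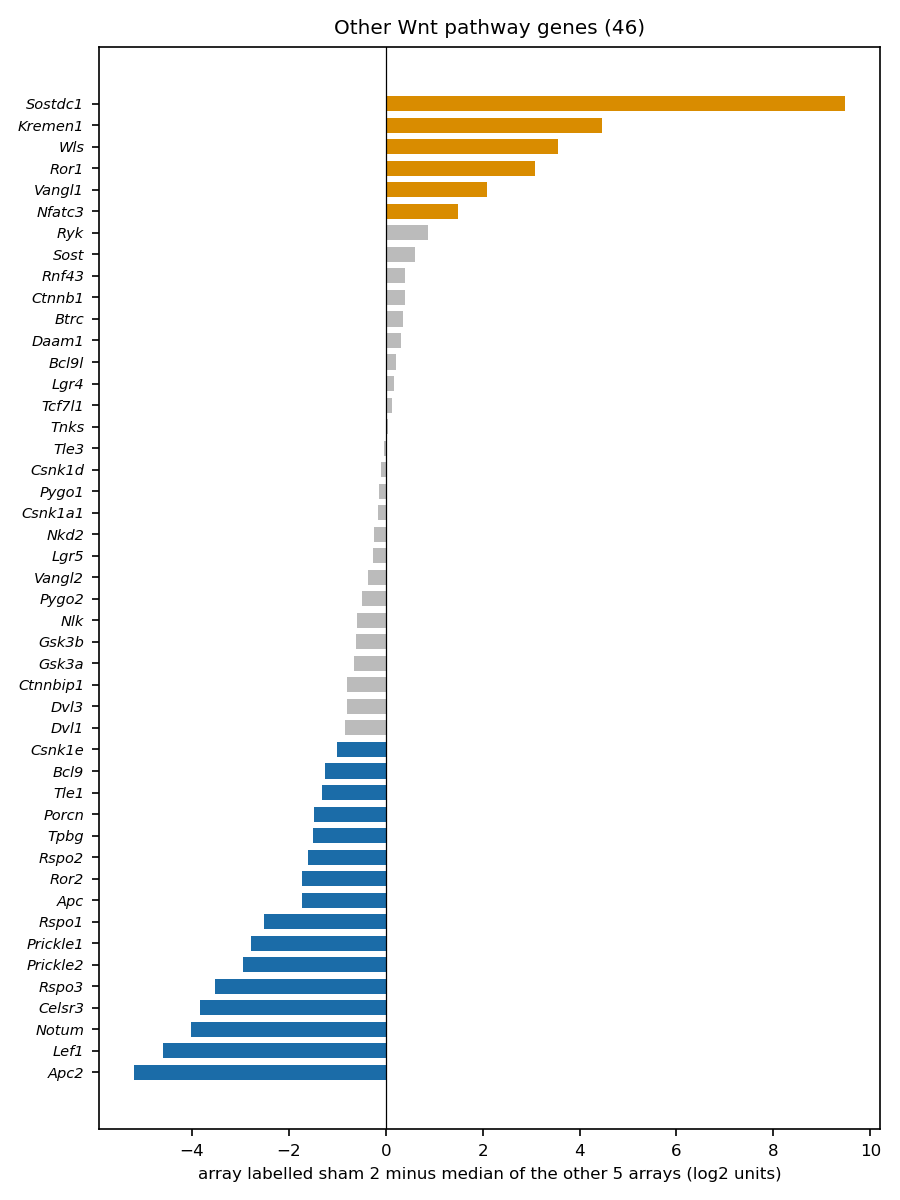
Difference of the array labelled sham 2 from the median of the other 5 arrays, in log2 units, for 46 other genes of the Wnt pathway. Orange bars are higher and blue bars lower by over 1 log2 unit; Sostdc1 (saturated there), Kremen1, Wls and Ror1 are the 4 highest, and Apc2 and Lef1 the 2 lowest.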

How the data were processed

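Hippocampal RNA of 6 male rats was analysed, 200 ng per animal amplified and labelled with Cy3, per the labels' protocols. Per the file headers, arrays were read with Agilent Feature Extraction 10.5.1.1, and the authors deposited its processed signal, a background-subtracted intensity, with raw spot intensity. The table of log2 values that the authors deposited is equal to log2 processed signal plus 1 constant per array (-0.32 to 0.72); its columns have medians of 8.02, 7.94 and 7.91 (orchidectomized 1, 2, 3) and 7.77, 7.62 and 8.05 (sham 1, 2, 3), and the origin of these constants is unknown. The build in the file headers differs from GRCr8, so only promoters have coordinates.

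Control spots (1377 of 44254) and spots with an outlier flag were left out, log2(gProcessedSignal) was averaged per probe, and each array's 75th percentile was subtracted. The files hold accessions and no gene names. Unversioned RefSeq accessions named 18004 of 30367 probes, and the rule for members was applied to these symbols. A probe was tested if every array of either group had it well above background. The two-sided test was that of limma (version 3.58.1, R 4.3.3; lmFit, then eBayes), and p-values were adjusted by Benjamini-Hochberg over every probe tested. The fit was also run on simulated data with added shifts larger than most of the members' differences. That run does not show its power for smaller ones. "At least" folds set the brighter mean against the dimmer group's mean of, per array, the higher of its own value and the lowest value well above background; a saturated value was taken as it stands.

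Orchidectomized 1 and 2 shared slide 1, and orchidectomized 3 shared slide 2 with sham 1. The array labelled sham 2 was on slide 3 and sham 3 on slide 4, both scanned on another day than the rest. Deviations of same-numbered arrays from their group means correlated at 0.027, -0.023 and -0.018. The sham mean includes the array labelled sham 2, whose profile sets most of the sham deviations. These values therefore cannot show whether numbers pair animals.

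Members and lists were chosen with earlier results of these data known. Full values are given for members with an unadjusted p under 0.05 or separated groups, the 6 highest and 6 lowest on the array labelled sham 2, and inhibitors above background on all 6 arrays. Of the other pathway and target genes the 4 with the smallest p per comparison and the 4 highest and 4 lowest on that array are named. Separated groups were added to this rule after the data were seen, as were Axin2, Porcn and Ctnnb1.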

Additional observations from a re-analysis of the deposited data

How the results depend on the processing

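The members called stayed at 0 in both comparisons under all 18 alternatives over 6 arrays and all 17 without the array labelled sham 2. Over all probes the count called moved from 0 to 1 with quantile normalization and 13 with array weights over 6 arrays. Without the array labelled sham 2 it moved from 0 to 2 with quantile normalization, 1 with median scaling, 18 with the deposited values and 10 with scan day as a block. Leaving out single arrays gave 0 to 0 probes over 6 arrays and 0 to 251 over 5, with 22 without sham 1 and 251 without sham 3, where the lone sham array is assumed to vary like the other group. The median difference of the members tested, 0.09 over 6 arrays, was -0.10 under array weights, -0.11 when slide was a block and -0.12 when scan day was, and ran from -0.04 to 0.16 without single arrays. Over 5 arrays it was 0.12 with normexp and -0.16 with slide as a block, and ran from -0.15 to 0.03 without single arrays. Both blocks compare with sham 1 alone. With normexp Wnt8b, which lies near background, turned to 0.16 over 5 arrays. Rnf43 turned to 0.0011 over 6 and 0.034 over 5 arrays, although it was well above background on all 6 arrays (-5.71 to -5.15). Wnt2b, also well above background on all 6 arrays (-6.16 to -4.95), shrank from -0.85 to -0.16 over 6 arrays. The cause of these changes was not tested. Array weights, with 0.028 for the array labelled sham 2, gave 0.34 for Wnt7b, 0.24 for Wnt10b and -0.20 for Fzd8 over 6 arrays, and 0.15 for Wnt10b and -0.37 for Sfrp2 over 5. Replicate number as a block (replicate block) gave Wnt2b -0.85 and -0.87 (limma adjusted p = 0.844 and 0.996) and 0 calls in both comparisons. Over its alternatives the limma adjusted p of Wnt2b ran from 0.120 to 1.0 over 6 arrays and from 0.137 to 1.0 over 5. Signal near background limits what can be said of Wnt8a, Wnt8b, Dkk1, Dkk2, Dkk4 and Fzd5.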
